A study of Arabidopsis thaliana with 36 samples.

Results

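The *Arabidopsis thaliana* genes named CYP and a number were described across the wild type (WT, Col-0) and the *puchi-1* mutant. Members were the rows of the count table with at least 15 reads summed over the 36 libraries whose symbol begins with CYP and a digit, and 6 genes of cuticle and suberin synthesis (*CYP86A1*, *CYP86A4*, *CYP86A8*, *CYP86B1*, *CYP77B1*, and *CYP96A15*) were left out. Of 241 rows with such a name, 6 were removed in this way and 42 others stayed under 15 reads, which left 193 members among 25889 genes tested. The symbol is shared by cytochrome P450 genes (189 members of 40 families) and by 4 cyclophilins (*CYP5*, *CYP38*, *CYP59*, and *CYP71*), which are peptidyl-prolyl isomerases, so counts below are over the 189 P450 genes and the cyclophilins are given apart. The annotation calls 6 of the 189 pseudogenes. *CYP86A2* and *CYP77A6*, known for cutin synthesis in shoot organs, are not among the genes left out and were kept.

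Roots of seedlings 4 days old were turned to place lateral root initiation at the bend, and bends were cut out at 12, 18, 24, 30, and 36 hours post-gravistimulation (hpg). Each genotype also had ‘No LR’ root segments, taken between the bend and the shoot and devoid of primordia, whose sampling is placed at either 9 or 12 hpg. Every group had 3 biological replicates, each a pool of about 400 segments or of more than 400 bends. The titles of replicates 2 and 3 of the *puchi-1* ‘No LR’ segments share number and date and differ by the word bis. They were kept as separate replicates, and whether they are separate pools is not stated. A value is an average over primordia and the tissues around them, and fewer cells of a type and less RNA per cell cannot be told apart. The labels separate the genotypes by the *puchi-1* allele of the AP2/ERF gene *PUCHI*. By the authors' staging, *puchi-1* primordia lag behind those of the WT, at stages II to V against III to VI at 36 hpg. Bends of the same time thus hold unlike mixes of stages. The months in the sample titles, where given, also differ between the genotypes at each bend time but 18 hpg. What these dates mark is not stated, and there month and genotype cannot be fully told apart.

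Cytochromes P450 are heme enzymes, mostly anchored in the endoplasmic reticulum, that insert one oxygen atom into a substrate with electrons from a reductase. Plants carry them in large families, many of them arrayed in tandem, which build and inactivate hormones, make lignin precursors and sterols, and give each lineage its defence compounds. In Arabidopsis roots they are best known for glucosinolates, camalexin, and the triterpenes thalianol, marneral, and arabidiol, and for tuning brassinosteroid, cytokinin, abscisic acid (ABA), and jasmonate levels.

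The members share the loop in which a cysteine holds the heme iron. Its coding stretch is printed for 8 members that the results turn on, as 10 codons read 5′ to 3′ from coding exons of RefSeq (TAIR10.1), with the cysteine codon in capitals.
CYP81F4 (chr4:17592556-17592585, plus strand): tttggaagcggacggagaataTGTcccggt
CYP83B1 (chr4:15273848-15273877, minus strand): ttcgggtcgggccggagaatgTGCccggcc
CYP705A5 (chr5:19436247-19436276, plus strand): ttcggtagcggaaggagagctTGTcctgga
CYP716A1 (chr5:14197428-14197457, plus strand): tttggaggaggaccaagaatgTGTccaggg
CYP708A1 (chr1:20922726-20922755, minus strand): tttggtggtggtgcaagactaTGTgcagga
CYP86A2 (chr4:162470-162499, plus strand): tttaacgccggacctaggatcTGTctagga
CYP71A16 (chr5:17031388-17031417, minus strand): tttggagcagggagaaggttaTGTcccggc
CYP78A10 (chr1:27866823-27866852, minus strand): ttcggtgctggacgtagggtcTGTcccggc
The capitals fall on TGC or TGT in each, 7 codons after the first. This loop was searched as codons for phenylalanine, glycine, arginine, cysteine, and a closing glycine or alanine at the places that the 8 stretches share, and 163 of 183 P450 members with a coding sequence held it (89.1%), 141 with glycine and 22 with alanine as in *CYP83B1*. It was in 26 of 22919 other tested genes (0.113%), which include left-out cuticle and suberin genes and P450 genes under other symbols. None of the 4 cyclophilins held it, so the 2 kinds of gene under the CYP name differ in sequence as the annotation says. The 20 P450 members without it include the 4 *CYP707A* and the 4 *CYP710A* genes, whose loops depart from these letters.

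Total counts were 31.7 to 122 M (M, 1000000 reads assigned to genes) per library with a median of 48.1 M. P450 genes took 0.73 to 1.07% of the counts, and 154 to 172 of the 189 had a read in a given library. *PUCHI* itself had more reads in *puchi-1* than in the WT over the bends (log2FC of 0.83, edgeR adjusted p = 1.61e-07), so a fall of its mRNA cannot serve as a check of the mutant label. The libraries stood apart in 3 marker lists, root hair and endodermal barrier of 9 genes each and xylem of 8, all of which were tested. The summed level of the root hair markers was 454 to 803 CPM (counts per 1000000 after TMM scaling) in WT bends at 12 hpg and 1.11 to 106 at 36 hpg, and in *puchi-1* 885 to 1333 and 4.12 to 43.6. The endodermal barrier markers summed to 687 to 1115 CPM at 12 hpg and 102 to 161 at 36 hpg in the WT, and to 831 to 1210.3 and 90.4 to 95.6 in *puchi-1*. The xylem markers summed to 1043 to 1462 CPM at 12 hpg and 334 to 399 at 36 hpg in WT bends, to 1003 to 1180.0 and 256 to 451 in those of *puchi-1*, and had no gene at 0 reads. In the ‘No LR’ segments replicate 1 of each genotype was at the level of the 12 hpg bends, with a mean log2 CPM (prior count of 2) over the root hair list of 5.28 and 5.07, against -0.78 and -2.91 for the remaining WT segments and 1.39 and -2.83 for the remaining *puchi-1* segments. Markers at 0 reads in some library were *RSL4* and *MRH6* in ‘No LR’ segments, *EXPA7* in the WT at 36 hpg, and *CASP5* in segments, WT bends at 30 hpg, and *puchi-1* bends at 36 hpg. These lists move with time and with the ‘No LR’ replicates, and their part in the results below was not tested.

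Among the members, glucosinolate and triterpene enzymes led the P450 transcripts. P450 genes under other symbols were not ranked, among them the cinnamate hydroxylase gene *C4H* with 1464758 reads over the 36 libraries. Levels were compared per length, as CPM per kb of coding sequence, over the 36 libraries. *CYP81F4*, which modifies the indole ring of indole glucosinolates, was the most abundant at 1455 (845 to 1839 over the libraries). *CYP83B1*, which commits indole-3-acetaldoxime to these compounds, followed at 519 (312 to 669.9). The thalianol enzymes *CYP705A5* and *CYP708A2* had 508 (132 to 1007) and 495 (257 to 728). These 3 genes after *CYP81F4* overlapped in their ranges, whereas the lowest library of *CYP81F4* was above the highest of *CYP83B1* and of *CYP708A2* but not of *CYP705A5*. *CYP79B3* and *CYP79B2*, which turn tryptophan into indole-3-acetaldoxime, a precursor of glucosinolates, camalexin, and auxin, were level with each other at 302 and 296. Below them came *CYP83A1* of the aliphatic glucosinolate pathway (171), *CYP98A3* of lignin synthesis (171), *CYP72A13* (123), and *CYP71A27* (116). The most abundant 10 P450 genes by CPM in a library held 61.9 to 71% of its P450 reads. At the other end, 5 to 18 members had no read in a group, where a count of 0 over its 3 libraries allows up to 3 reads.

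**Figure D1:**
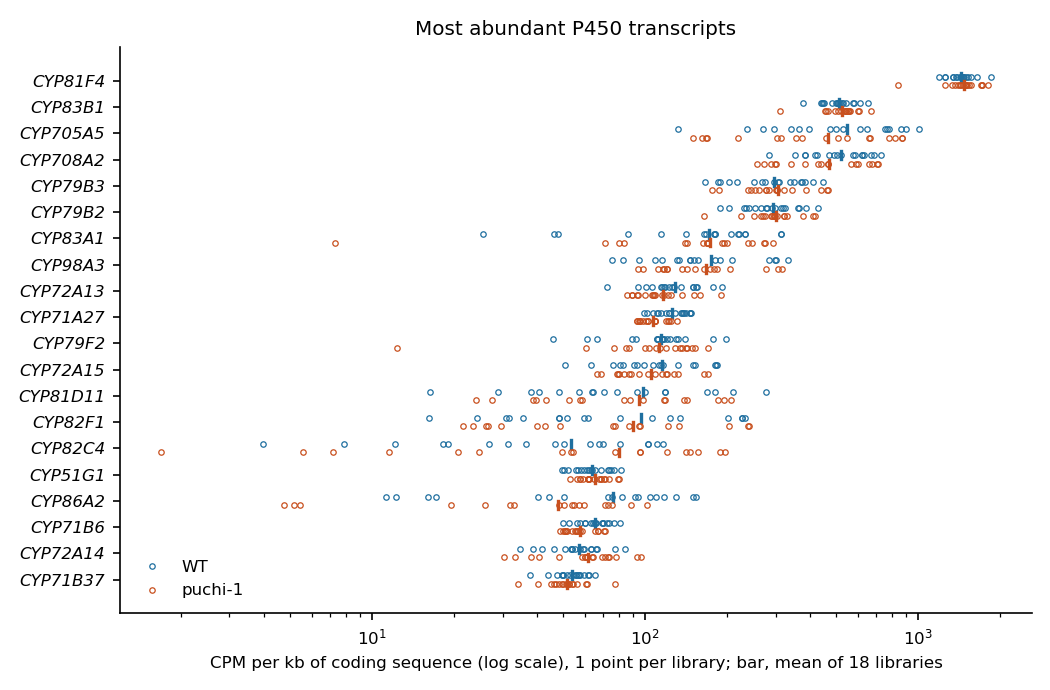
CPM per kb of coding sequence (log scale) of the 20 P450 members with the highest mean over the 36 libraries. Circles are libraries of the WT (blue) and *puchi-1* (orange), and vertical bars the mean of the 18 libraries of a genotype. *CYP81F4* has the highest mean, *CYP705A5* spans 132 to 1007, and *CYP83A1* spans 7.28 to 315.

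From 12 to 36 hpg, the span in which the primordium grows, P450 genes changed in both directions. A gene was called at an adjusted p under 0.05 and a log2FC beyond 1 or -1. In the WT 46 of 189 were called (24.3%), beside 12.5% of all genes tested. These were 21 higher at 36 hpg (11.1%, beside 6.18% of all genes) and 25 lower (13.2%, beside 6.33%). In *puchi-1* 64 were called (33.9%), beside 14.2% of all genes, 28 of them higher (14.8%, beside 6.57%) and 36 lower (19%, beside 7.6%). At the adjusted p alone, 64 P450 genes passed in the WT (33.9%, beside 36.2% of all genes) and 84 in *puchi-1* (44.4%, beside 33.6%), so in the WT the share above the background is seen with the fold limit only. The median log2FC of the P450 genes was -0.08 for the WT, where that of all genes was 0.04, and 0.00 for *puchi-1*, where it was 0.07. With groups at 0 reads set to their bound and genes at 3 reads or fewer in both groups left out, the medians were -0.21 over 172 and -0.08 over 179 genes. The genotypes share no library. In both, 37 genes were called in the same direction (16 higher and 21 lower), with none in opposite directions. They were 80.4% of the WT list and 57.8% of the *puchi-1* list. The matching overlap over all genes is not given, so these shares are not read as a trait of P450 genes. A test for any change among the 5 bend times passed 48 P450 genes in the WT (25.4%, beside 28.2% of all genes) and 66 in *puchi-1* (34.9%, beside 24.4%). Among these the ends of the series held the extremes. In the WT 26 were highest at 12 hpg and 14 at 36 hpg, and in *puchi-1* 32 and 24.

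**Figure D2:**
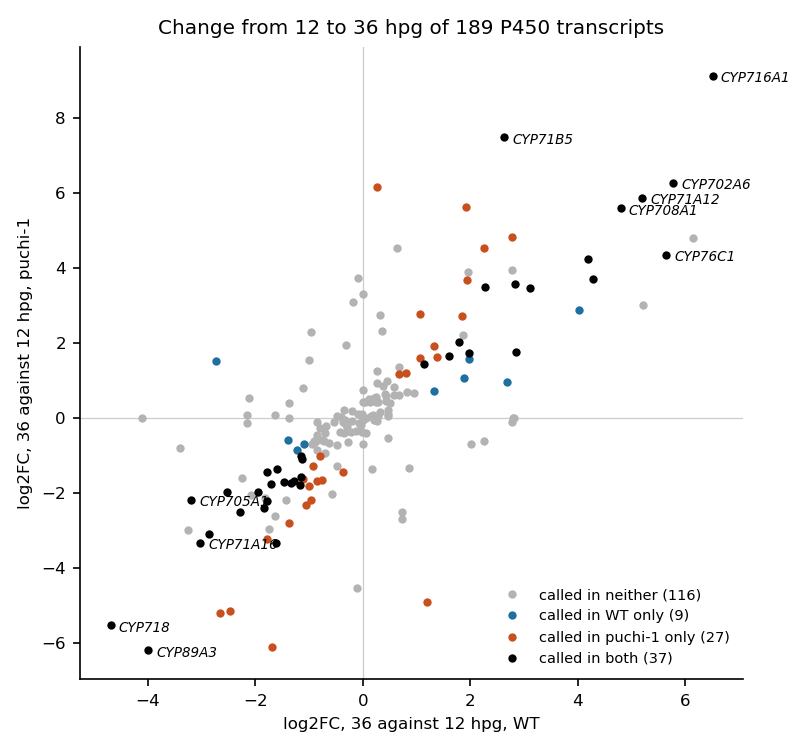
Fitted log2FC of 36 against 12 hpg for the 189 P450 genes, in the WT (x axis) and in *puchi-1* (y axis). Black points were called in both genotypes (37), blue points in the WT alone (9), orange points in *puchi-1* alone (27), and grey points in neither (116); fitted values of genes near 0 reads depend on the prior count.

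Several oxidases that were low at 12 hpg rose by 36 hpg. *CYP716A1*, of a family known for triterpene oxidation, was at 0.108, 0.114, and 0.164 CPM in the WT at 12 hpg and 10.5, 12.6, and 12.4 at 36 hpg. In *puchi-1* it was at 0, 0, and 0.0327 CPM and 6.57, 7.01, and 3.53. Both genotypes thus kept their time points apart, with a log2FC of 6.51 ± 0.72 (SE) in the WT (adjusted p = 4.18e-06) and, on 1 read against 1238 in *puchi-1*, a ratio of 646 (95% exact counting interval 116 to 25517). *CYP708A1*, of the family that holds thalianol hydroxylase, went from 1.17, 0.82, and 2.5 to 42.1, 41.7, and 40.7 CPM in the WT. It went from 0.363, 0.643, and 0.131 to 18.8, 26, and 13.6 in *puchi-1*, and the log2FC were 4.80 ± 0.56 (SE) and 5.58 ± 0.61 (SE). *CYP76C1*, a monoterpenol oxidase that acts on linalool, rose from 0.454, 0.319, and 0.351 to 23, 16.7, and 16.9 CPM in the WT and from 0.454, 0.454, and 0.262 to 6.92, 10.7, and 6.59 in *puchi-1* (log2FC of 5.65 and 4.33, adjusted p = 4.18e-06 and 1.87e-05). The fatty acid omega-hydroxylase *CYP86A2* (*ATT1*) was at 18.7, 20.2, and 26.6 CPM in the WT at 12 hpg, 121, 194, and 247 at 24 hpg, and 172, 136, and 156 at 36 hpg. Its 24 and 36 hpg libraries thus overlapped in the WT, whereas *CYP716A1* and *CYP708A1* went on rising to 36 hpg, with no overlap between 24 and 36 hpg. *CYP702A6* had a log2FC of 5.78 ± 1.14 (SE) in the WT and 6.26 ± 1.27 (SE) in *puchi-1*. *CYP71A12*, which makes indole-3-acetonitrile from the aldoxime in camalexin synthesis, had 5.20 ± 1.31 (SE) and 5.85 ± 1.47 (SE), and at 36 hpg its WT libraries were spread over 2.67, 24.3, and 22.2 CPM.

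The 5 genes listed for root triterpene synthesis were called in one direction. The list was chosen with earlier results of these data known. *CYP716A1* and *CYP708A1*, of families with triterpene enzymes, are not on it and rose, as given above. All 5 members of this list were called lower at 36 than at 12 hpg in *puchi-1* and 3 of them in the WT (*CYP705A1*, *CYP705A5*, and *CYP71A16*), with none higher, where 7.6% and 6.33% of all genes were called lower. The thalianol pair *CYP705A5* (chr5, 19434758 to 19436749) and *CYP708A2* (chr5, 19444103 to 19447866) lies in one cluster on TAIR10.1 with the thalianol synthase gene *THAS1*. *CYP705A5* was at 1544, 1377, and 1323 CPM in the WT at 12 hpg and 414, 453, and 360.2 at 36 hpg. In *puchi-1* it was at 1334, 1333, and 1259.8 and 334, 258, and 248 CPM, and in both genotypes the time points did not overlap (log2FC of -1.79 ± 0.37 (SE) and -2.22 ± 0.37 (SE)). For *CYP708A2* the log2FC was -0.80 (adjusted p = 0.0111) among WT bends and -1.004 (adjusted p = 0.00241) among *puchi-1* bends, just past the fold limit in the mutant and inside it in the WT. *THAS1* had -1.10 and -1.45. The marneral oxidase *CYP71A16* fell from 179.9, 143, and 126 to 17.9, 23.2, and 13.9 CPM in the WT and from 133, 152, and 97.4 to 14, 12.1, and 11.7 in *puchi-1*, and every later WT group lay below the 12 hpg libraries. Its log2FC were -3.03 ± 0.50 (SE) and -3.34 ± 0.50 (SE), and the marneral synthase gene *MRN1* had -4.11 and -4.84. Its cluster neighbour *CYP705A12* fell in *puchi-1*, with -1.82 ± 0.45 (SE) (adjusted p = 0.00313), and had -1.003 ± 0.44 (SE) for WT bends (adjusted p = 0.0775). *CYP705A1*, which cleaves arabidiol, had -3.20 ± 0.44 (SE) and -2.19 ± 0.42 (SE), whereas the arabidiol synthase gene *PEN1* had -1.42 (adjusted p = 0.000233) and -0.62 (adjusted p = 0.0577). Of the 25 *CYP705A* genes, 3 were called lower in the WT and 5 in *puchi-1*, and none higher, near the shares of all P450 genes called lower (13.2% and 19%). At the adjusted p alone 6 passed lower and 2 higher in WT bends, and 8 lower and 2 higher in bends of the mutant.

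Of the 4 phenylpropanoid members, *CYP98A3* and *CYP84A4* were called lower at 36 than at 12 hpg in both genotypes. The sum of the xylem markers was lower with them, at 334 to 399 CPM at 36 hpg against 1043 to 1462 at 12 hpg in WT bends. The listed marker *ACL5* went the other way, with a WT mean of 73.8 CPM at 36 hpg and 39.0 at 12 hpg. The part of the xylem markers in this was not tested. *CYP98A3*, which hydroxylates the ring of lignin precursors, was at 460.1, 456, and 432 CPM at 12 hpg and 175, 144, and 127 at 36 hpg in the WT. It was at 465, 423, and 481 and 182, 169, and 178 CPM in *puchi-1*, with log2FC of -1.59 ± 0.30 (SE) and -1.37 ± 0.30 (SE). *CYP84A4*, of arabidopyrone synthesis, fell by 1.83 and 2.41 on the log2 scale. The other members of this list, the paralogues *CYP98A8* and *CYP98A9* known from pollen, were not called and stayed under 1 CPM in every library. P450 genes of the pathway that go by other symbols were measured beside them. Cinnamate hydroxylase *C4H* had -1.33 in the WT and -0.99 in *puchi-1*, the flavonoid hydroxylase *TT7* -2.03 and -1.58, and *FAH1* 0.07 (adjusted p = 0.794) and 0.21 (adjusted p = 0.417). *CYP82F1*, for which no role is given here, fell from 366, 356, and 318 to 56.3, 49, and 38.1 CPM in the WT (log2FC of -2.86 ± 0.52 (SE), and -3.10 ± 0.53 (SE) in *puchi-1*).

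**Figure D3:**
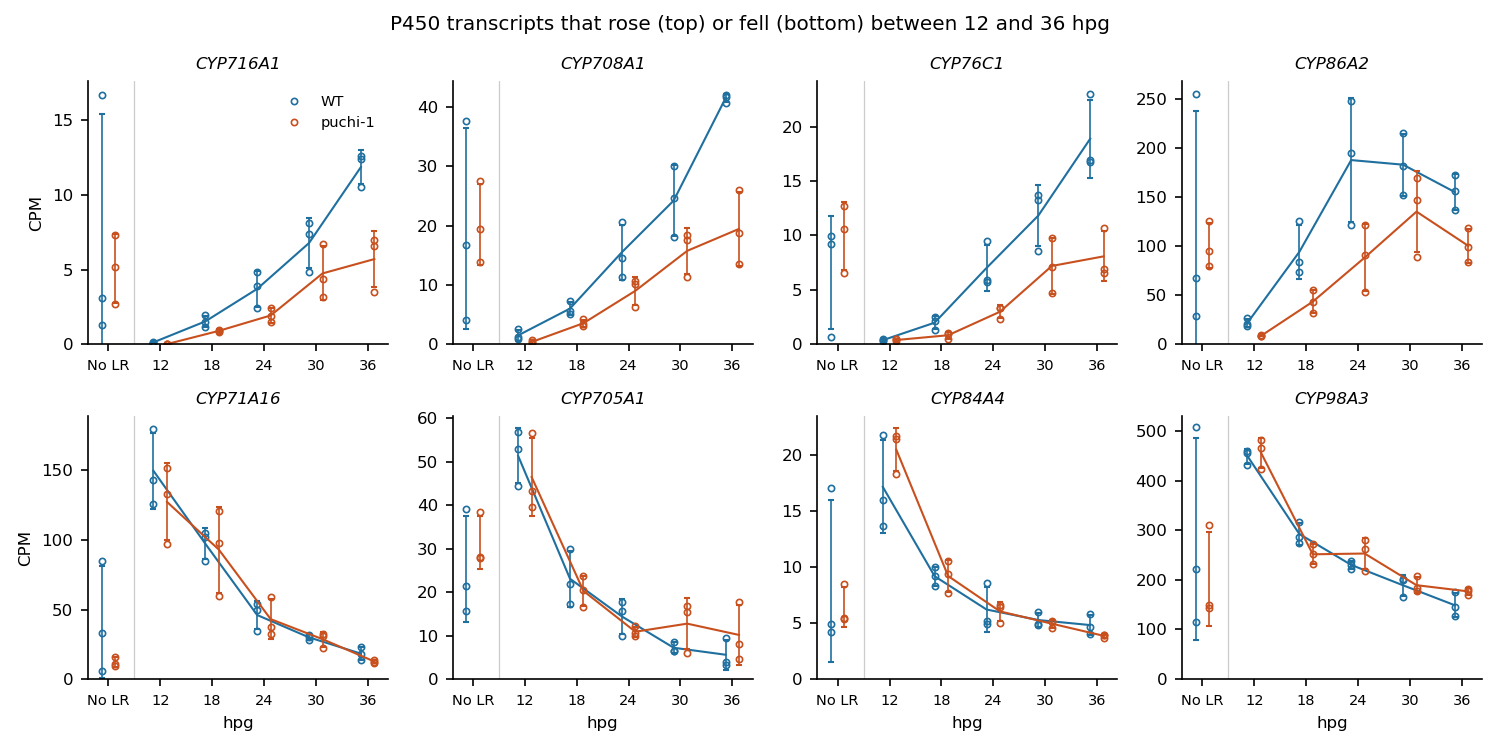
CPM of 8 P450 genes in ‘No LR’ segments and in bends at 12 to 36 hpg. Circles are libraries of the WT (blue) and *puchi-1* (orange), and bars the mean and SD of 3, drawn from 0 upward. The 12 and 36 hpg libraries do not overlap in any of the 8 genes, and the ‘No LR’ libraries of the WT are spread widely, from 28.4 to 255 CPM for *CYP86A2*.

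Genes of hormone metabolism moved one by one rather than as a group. Of the 4 ABA 8′-hydroxylase genes *CYP707A1* fell by 1.15 in the WT and 1.57 in *puchi-1* on the log2 scale (adjusted p = 0.00103 and 7.49e-05). None of *CYP707A2*, *CYP707A3*, and *CYP707A4* was called, and *CYP707A3* had 0.01 ± 0.86 (SE) and 0.74 ± 0.86 (SE). *CYP711A1* (*MAX1*), of strigolactone synthesis, did not pass, with -0.20 ± 0.13 (SE) and -0.08 ± 0.13 (SE), and lay between 47.8 and 73.2 CPM over all 36 libraries. *CYP72C1*, which inactivates brassinosteroids, had 0.13 ± 0.25 (SE) and 0.42 ± 0.25 (SE) and did not pass. *CYP714A1*, which inactivates gibberellins, had a log2FC of -1.71 ± 0.45 (SE) and -1.76 ± 0.45 (SE), and its partner *CYP714A2* -0.79 and -0.26 (adjusted p = 0.376 and 0.793). In gibberellin synthesis *CYP88A3* had 0.57 and 0.62. The jasmonoyl-isoleucine hydroxylase *CYP94B1* fell from 92.4, 94, and 136 to 25.7, 32.1, and 26.1 CPM in the WT and from 103, 98.8, and 119 to 33.9, 24.5, and 23.5 in *puchi-1*, and no library of 36 hpg reached one of 12 hpg. Its paralogue *CYP94B3* was called in the WT alone (log2FC of -1.38 and -0.58), and *CYP94C1*, the next step of the pathway, in neither (-0.85 and -0.11). The cytokinin trans-hydroxylases parted. *CYP735A2* rose in the WT from 16.7, 19.4, and 17.5 to 50.5, 41.5, and 42.6 CPM (log2FC of 1.33 ± 0.28 (SE)) and was at 25.1, 17, and 18.5 and 23.9, 30.6, and 44.1 in *puchi-1*. *CYP735A1* fell in *puchi-1* from 9.64, 9.96, and 15 to 4.58, 3.01, and 5.15 CPM (log2FC of -1.43 ± 0.24 (SE)) and had -0.37 ± 0.23 (SE) in the WT (adjusted p = 0.215). That a gene was called in one genotype alone does not show a difference between them, and no P450 gene passed the test of such a difference, which is given with the genotypes.

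In the glucosinolate pathway *CYP81F4* and *CYP83B1*, the most abundant, did not pass between 12 and 36 hpg, whereas *CYP81F2*, *CYP81F3*, and *CYP83A1* were called in at least one genotype. *CYP81F4* had a log2FC of 0.20 ± 0.15 (SE) in the WT and -0.05 ± 0.15 (SE) in *puchi-1*, and *CYP83B1* -0.03 ± 0.18 (SE) and -0.19 ± 0.18 (SE), none of which passed. *CYP81F2*, whose product is known from pathogen defence, was called in both genotypes, from 0.757, 1.8, and 1.85 to 7.09, 10.1, and 14.6 CPM in the WT and from 1.34, 0.871, and 1.67 to 4.7, 4.83, and 3.57 in *puchi-1* (log2FC of 2.85 and 1.77). *CYP81F3* was called lower in *puchi-1* (-1.69 ± 0.56 (SE), and -0.86 ± 0.55 (SE) in the WT), so the 4 *CYP81F* genes, *CYP91A2* (*CYP81F1*, 0.32 and 0.15) among them, did not move together. *CYP79B2* had 0.48 and 0.22, and *CYP79B3* 0.82 and 0.69, and neither was called. In the aliphatic branch *CYP83A1* rose in the WT from 69.5, 130.3, and 72.2 to 474, 272, and 328 CPM (log2FC of 1.98 ± 0.64 (SE), adjusted p = 0.0166) and was called in the WT alone, with 1.57 ± 0.63 (SE) in *puchi-1* (adjusted p = 0.0541). Among sterol genes the sterol C-22 desaturase *CYP710A1* fell from 105, 61, and 63.5 to 12.2, 23.2, and 11.9 CPM in the WT (log2FC of -2.28 ± 0.53 (SE), and -2.51 ± 0.54 (SE) in *puchi-1*), while the sterol demethylase *CYP51G1* had -0.35 and -0.40. *CYP710A3* and *CYP710A4* are 95.8% identical in coding sequence, so reads between them are uncertain. *CYP82C4*, which makes the iron-chelating coumarin sideretin, was at 11.3, 8.76, and 18.1 CPM at 12 hpg and 222, 189, and 77.6 at 36 hpg in *puchi-1* (log2FC of 3.68 ± 0.99 (SE), adjusted p = 0.00534). Its spread within groups was wide, and the WT value was 1.93 ± 0.92 (SE) (adjusted p = 0.103).

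**Figure D4:**
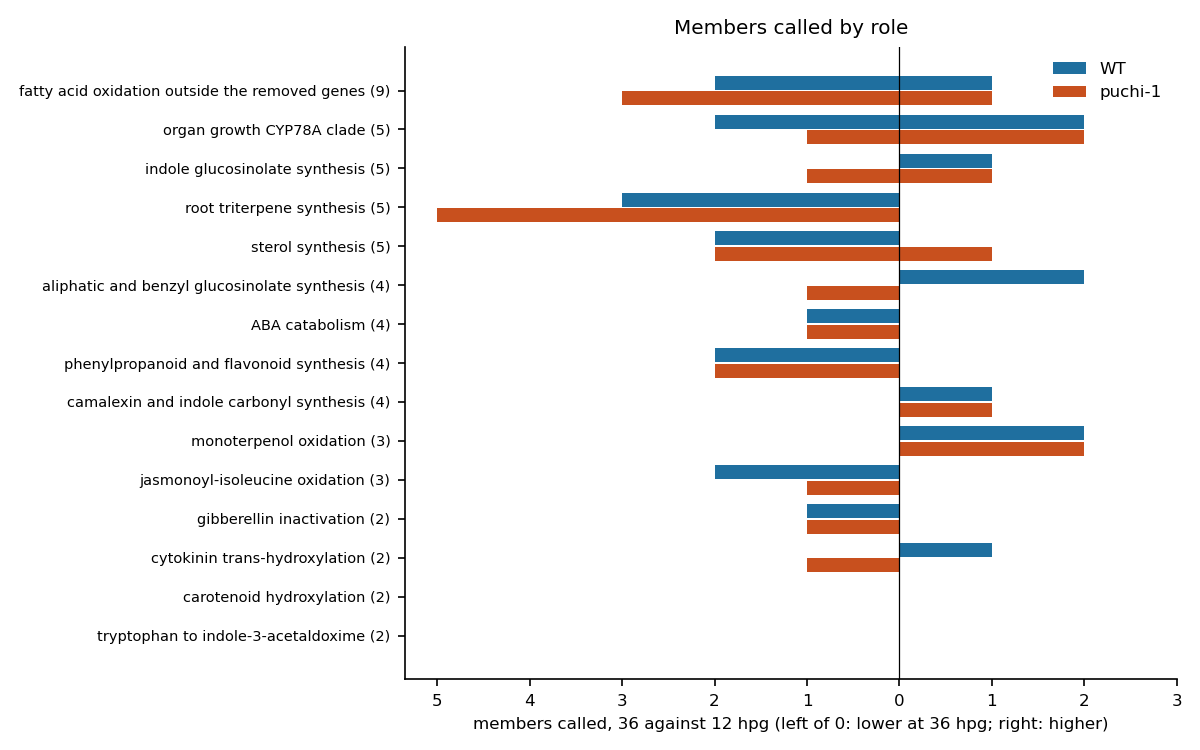
Number of P450 members called higher (right of 0) or lower (left of 0) at 36 than at 12 hpg, by role, in the WT (blue) and *puchi-1* (orange), with the number of members of a role in brackets and roles of 1 member left out. Root triterpene and phenylpropanoid genes lie to the left in both genotypes, and monoterpenol oxidases to the right.

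The *CYP78A* clade, which includes *KLU* (*CYP78A5*) and other regulators of organ growth, split in time. *CYP78A8* rose from 0.476, 1.64, and 0.982 to 25.4, 17, and 18 CPM in the WT and from 1.25, 0.416, and 0.817 to 5.24, 15, and 12.1 in *puchi-1* (log2FC of 4.29 ± 0.83 (SE) and 3.71 ± 0.82 (SE)). *CYP78A6* rose as well (1.79 ± 0.54 (SE) and 2.02 ± 0.55 (SE)), whereas *CYP78A9* fell from 1.97, 2.82, and 2.83 to 0.987, 0.635, and 0.587 CPM in the WT (-1.78 ± 0.38 (SE), and -1.44 ± 0.37 (SE) in *puchi-1*). The 12 and 36 hpg libraries of *CYP78A8* and of WT *CYP78A9* did not overlap. *CYP78A5* stayed under 1 CPM in every library, and *CYP78A10* was called lower at 36 hpg in the WT (-2.74 ± 1.06 (SE), adjusted p = 0.0456), where its libraries overlapped in time and replicate 3 of 12 hpg held most of the reads.

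Neighbours in tandem arrays did not always share a course. *CYP716A2*, in the same array as *CYP716A1* on chromosome 5, was at 12.5, 32.1, and 33.9 CPM at 12 hpg and 16.1, 51.5, and 40.8 at 36 hpg in the WT, and these overlapped (log2FC of 0.47 ± 0.56 (SE), adjusted p = 0.541). Its value for the mutant was -0.53 ± 0.56 (SE) (adjusted p = 0.492). *CYP702A5*, beside *CYP702A6*, was already at 6.88, 12, and 4.04 CPM in the WT at 12 hpg, where *CYP702A6* was at 0.0865, 0.296, and 0.14, and passed in *puchi-1* (2.72 ± 0.79 (SE)) but not in the WT (1.85 ± 0.77 (SE), adjusted p = 0.0607). *CYP71A13*, beside *CYP71A12* and with the same reaction, had a log2FC of 0.64 ± 1.91 (SE) in the WT (adjusted p = 0.823) at a level that reached 1.55 CPM at most in the bends. *CYP76C2* was under 1 CPM throughout, while *CYP76C4* rose with *CYP76C1* (3.11 ± 0.97 (SE) in the WT and 3.47 ± 0.97 (SE) in *puchi-1*). *CYP718*, the one member of its family, fell from 10.3, 15.8, and 12.4 to 1.01, 0.444, and 0 CPM in the WT and from 12.5, 11.7, and 14.1 to 0.18, 0.0404, and 0.522 in *puchi-1*.

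Some of the largest fitted changes rest on few reads. Where a group had no read, 3 reads over its 3 libraries were taken as the floor. In *puchi-1*, *CYP89A3* had 23 reads at 12 hpg and none at 36 hpg, at least 14.7-fold lower, and *CYP72A10* had 19 and none, at least 12.1-fold lower. *CYP71B5*, with no read at 12 hpg and 78 at 36 hpg, was at least 13.6-fold higher, and *CYP71A23* (29 reads at 36 hpg) at least 5.04-fold higher. In the WT *CYP89A3* had 34 reads at 12 hpg and 2 at 36 hpg, a ratio of 18.7 (95% exact counting interval 4.79 to 161), and the pseudogene *CYP71B33* had 1 and 24, a ratio of 21.8 (3.56 to 897). These bounds and intervals cover counting error only.

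Among the P450 genes for which no role was listed, calls went in both directions. Of 126 such P450 genes, 11 were called higher and 10 lower in the WT, out of the 46 P450 genes called there. Of all genes tested, 6.18% were called higher and 6.33% lower in the WT. In *puchi-1* 19 were called higher and 17 lower, out of 64, beside 6.57% and 7.6% of all genes. The following were chosen after their values were seen, for their abundance. *CYP81D11* fell from 423, 276, and 257 to 58.2, 62.6, and 44.1 CPM in the WT and from 212, 315, and 283 to 89.9, 80.4, and 36.5 in the mutant, and its log2FC were -2.53 ± 0.59 (SE) and -1.97 ± 0.58 (SE). *CYP89A5* fell by 1.13 and 1.09 and *CYP705A9* by 1.47 and 1.71 on the log2 scale. *CYP71B7* (1.13 ± 0.30 (SE) and 1.43 ± 0.31 (SE)) and *CYP71B26* (1.61 ± 0.39 (SE) and 1.64 ± 0.39 (SE)) rose in both genotypes. *CYP706A1* rose too (2.27 ± 0.88 (SE) and 3.50 ± 0.96 (SE)), but it is 97.7% identical in coding sequence to *CYP706A2*, so the split of reads between the pair is uncertain. By family, the P450 family CYP71, the largest with 38 P450 members, had 7 called higher and 2 lower in WT bends. It had 10 higher and 4 lower in bends of the mutant, beside the same shares of all genes.

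Against ‘No LR’ segments, several genes that rose later in the bends were lower at 12 hpg, and most listed root triterpene genes were higher in *puchi-1*. The later changes in the bends were measured from the same 12 hpg libraries, so these comparisons are not independent. In the WT 11 P450 genes were called (5.82%), beside 2.46% of all genes, 10 lower at 12 hpg (5.29%, beside 2.31%) and 1 higher (0.529%, beside 0.151%). In *puchi-1* 40 were called (21.2%), beside 9.49%, 23 lower (12.2%, beside 6.23%) and 17 higher (8.99%, beside 3.26%). All 11 WT genes were also called in *puchi-1* in the same direction, 27.5% of that list. The matching overlap over all genes is not given here either. *CYP716A1* was at 1.31, 3.11, and 16.7 CPM in the WT segments, above 0.164 in the highest 12 hpg library. *CYP86A2* was at 28.4, 255, and 67.4 CPM, also above each 12 hpg library, with a log2FC of -2.42 ± 0.47 (SE) (adjusted p = 0.00334). *CYP71A16* was the WT gene called higher at 12 hpg, but its segments ran over 85, 32.9, and 5.63 CPM in replicates 1 to 3, the order of the replicates in the root hair and barrier markers. In *puchi-1* it was at 16.2, 9.26, and 11 CPM in the segments and 133, 152, and 97.4 at 12 hpg (log2FC of 3.39 ± 0.51 (SE), adjusted p = 6.66e-05), and 4 of 5 triterpene genes were called higher there. *CYP78A5* had no read in the *puchi-1* segments and 21 at 12 hpg, at least 11.5-fold higher.

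These counts turn on single libraries. Among 119 P450 genes with a mean of at least 1 CPM, the median SD between replicates was 0.57 on the log2(CPM + 0.1) scale in WT segments and 0.43 in those of *puchi-1*, against 0.19 to 0.29 in the bends. The WT count was 45 without replicate 1 of the WT segments, 7 without replicate 2, 4 without replicate 3, and 5 and 7 without replicates 1 and 2 of the 12 hpg bends. Without replicate 1 of both ‘No LR’ groups, an alternative chosen after the data were seen, it was 49 in the WT and 59 in *puchi-1*. In a fit of the compared groups alone it was 0 for WT and 15 for *puchi-1* libraries. The shares of all genes called in these fits are not given. The counts thus do not show whether P450 genes moved more than other genes.

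Between genotypes, over the average of the 5 bend times, 21 P450 genes passed an adjusted p of 0.05 (11.1%), which is near the 10.9% of all genes. Of these 17 were lower in *puchi-1* (8.99%, beside 5.32% of all genes) and 4 higher (2.12%, beside 5.57%). With a log2FC beyond 1 or -1, 3 were called (1.59%, beside 1.46% of all genes), *CYP78A10* higher (0.518% of all genes were) and *CYP716A1* and *CYP708A1* lower (0.939%). The median log2FC was -0.06 over the P450 genes and -0.01 over all genes. Without replicate 1 of the WT at 24 hpg, or replicate 1 of the WT at 36 hpg, 5 genes were called. With DESeq2, or with the title month as a covariate, it was 6. For these fits the shares of all genes are not given.

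*CYP78A10*, of the clade of *KLU*, had the largest difference of the P450 genes that passed over the bends. In the WT it stayed at 0.131, 0.148, and 0.416 CPM at 18 hpg, 0.475, 0.936, and 0.0895 at 24 hpg, 0.22, 0.645, and 0.0382 at 30 hpg, and 0.0366, 0.169, and 0.271 at 36 hpg. In *puchi-1* it was at 4.25, 4.29, and 5.81 CPM at 18 hpg, 5.37, 6.25, and 7.22 at 24 hpg, 5.31, 5.91, and 6.11 at 30 hpg, and 3.05, 3.05, and 2.9 at 36 hpg. Every *puchi-1* library from 18 hpg on was above every WT library of its time. At 12 hpg the genotypes overlapped, with 0, 0.273, and 2.88 CPM in WT libraries against 1.13, 1.36, and 0.621 in the mutant, and WT replicate 3 was the highest of the 6. The log2FC over the bends was 3.30 ± 0.45 (SE) (adjusted p = 1.37e-05). At single times it did not pass (adjusted p = 0.071 at 18 hpg, 0.0822 at 24 hpg, 0.0582 at 30 hpg, and 0.0525 at 36 hpg), although DESeq2 called it at each of these 4. In the ‘No LR’ segments it was at 0.887, 0.0777, and 0.182 CPM in WT libraries and 0.973, 1, and 2.18 in those of *puchi-1* (log2FC of 1.89 ± 0.97 (SE), adjusted p = 0.387). Its nearest relative among the members by coding sequence is *CYP78A5*, at 67.0% identity.

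**Figure D5:**
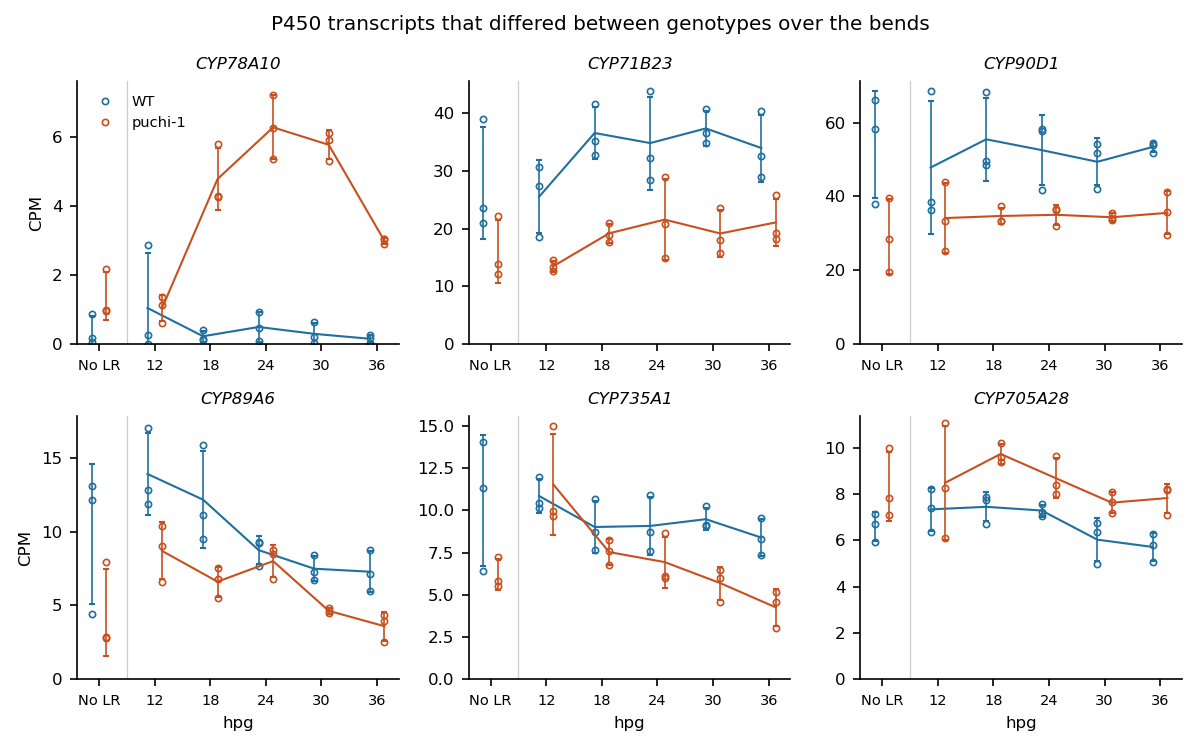
CPM of 6 P450 genes that passed between genotypes over the bends, in ‘No LR’ segments and at 12 to 36 hpg. Circles are libraries of the WT (blue) and *puchi-1* (orange), and bars the mean and SD of 3. Over the bends *CYP78A10* has a log2FC of 3.30 and *CYP705A28* of 0.33, and the remaining 4 lie between -0.84 and -0.45.

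Among the genes lower in *puchi-1*, *CYP71B23*, for which no role is given here, had the smallest p. Its 3 libraries lay below those of the WT at 4 of 5 times, for instance 17.7, 18.9, and 20.9 against 35.2, 41.6, and 32.8 CPM at 18 hpg and 25.8, 19.3, and 18.1 against 40.3, 32.5, and 29 at 36 hpg (log2FC of -0.84 ± 0.11 (SE), adjusted p = 1.01e-05).  *CYP90D1*, a brassinosteroid C-23 hydroxylase, was at 33.5, 35.6, and 34 CPM in *puchi-1* and 42.1, 54.1, and 51.9 in the WT at 30 hpg, and its libraries did not overlap at 4 of 5 times (log2FC of -0.57 ± 0.11 (SE), adjusted p = 0.000852). Other P450 genes of brassinosteroid synthesis had smaller values. *DWF4* had a log2FC of -0.24 (adjusted p = 0.0133), and *CPD* 0.09 and *ROT3* -0.19 (adjusted p = 0.589 and 0.105). The cytokinin hydroxylase *CYP735A1* was at 4.58, 3.01, and 5.15 CPM in *puchi-1* and 7.35, 8.27, and 9.52 in the WT at 36 hpg, and passed there, as 0.954% of all genes did (log2FC of -0.97 ± 0.23 (SE), adjusted p = 0.0358) and over the bends (-0.45 ± 0.10 (SE), adjusted p = 0.00521). *CYP735A2* had -0.16 ± 0.12 (SE) (adjusted p = 0.461).

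Of the genes named above as rising by 36 hpg, *CYP716A1*, *CYP708A1*, *CYP86A2*, *CYP76C1*, and *CYP81F2* were among those that passed lower in *puchi-1*. This comparison uses the same bend libraries. It is made at equal hpg and not at equal primordium stage, and the part of the later staging of *puchi-1* was not tested. *CYP702A6*, *CYP71A12*, *CYP78A8*, *CYP78A6*, and *CYP76C4* did not pass (log2FC of -0.37, -1.25, -0.62, -0.11, and 0.25). *CYP83A1*, *CYP735A2*, *CYP82C4*, *CYP702A5*, *CYP71B7*, *CYP71B26*, *CYP706A1*, *CYP71B5*, *CYP71A23*, and *CYP71B33*, also named above as higher at 36 hpg in a genotype, did not pass either. *CYP716A1* had a log2FC of -1.39 ± 0.35 (SE) over the bends (adjusted p = 0.00984), and at 36 hpg its *puchi-1* libraries, at 6.57, 7.01, and 3.53 CPM, lay below those of the WT at 10.5, 12.6, and 12.4. *CYP708A1* had -1.03 ± 0.22 (SE) (adjusted p = 0.00348) and was lower in all 3 libraries at 4 of 5 times. *CYP86A2* (-0.93 ± 0.20 (SE)), *CYP76C1* (-0.87 ± 0.24 (SE)), and *CYP81F2* (-0.86 ± 0.26 (SE)) passed as well. Each of these was lower in all 3 *puchi-1* libraries at 3 of the 5 times. The remaining genes that passed lower included *CYP89A6* (-0.68), *CYP89A9* (-0.38), which oxidizes chlorophyll breakdown products, *CYP72A8* (-0.85), the marneral cluster gene *CYP705A12* (-0.75), and *CYP96A12* (-0.38). The others were *CYP81H1* (-0.36), *CYP71A27* (-0.21), the indole carbonyl synthesis gene *CYP71B6* (-0.21), and the carotene hydroxylase *CYP97A3* (-0.18). Those that passed higher beside *CYP78A10* were *CYP705A18* (0.31 ± 0.06 (SE)), *CYP705A28* (0.33 ± 0.07 (SE)), and *CYP710A4* (0.65 ± 0.19 (SE)). *CYP89A9*, *CYP72A8*, *CYP96A12*, *CYP81H1*, *CYP89A6*, *CYP71A27*, *CYP705A18*, and *CYP705A28* are outside the rule for named genes and were named because they passed. The *puchi-1* bends at 36 hpg had root hair marker sums of 4.12 to 43.6 CPM and the WT 1.11 to 106, which overlap.

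At single bend times no P450 gene was called by edgeR in the fit of all 36 libraries, at 12 hpg (beside 0.0502% of all genes), 18 hpg (0.224%), 24 hpg (0.406%), 30 hpg (0.352%), or 36 hpg (0.521%). An unadjusted p under 0.05 was reached by 9 at 12 hpg (beside 7.4% of all genes), 12 at 18 hpg (10.1%), 20 at 24 hpg (14.6%), 10 at 30 hpg (5.96%), and 25 at 36 hpg (10.6%). DESeq2 called 0, 1, 2, 1, and 1 in this order, *CYP78A10* at each time but 12 hpg and *CYP81F2* besides at 24 hpg. The count of 0 does not hold in every edgeR fit. On the 30 bend libraries alone it was 1, 2, 4, 1, and 4, and the block on replicate number over all libraries gave 1 at 24 hpg. Shares of all genes called in these fits and by DESeq2 are not given, so the counts do not set P450 genes apart. *CYP89A9* passed the adjusted p at 24 hpg, as 0.695% of all genes did, with a smaller difference, 3.83, 3.64, and 5.47 CPM in *puchi-1* and 7.09, 7.51, and 10.1 in the WT (log2FC of -0.94 ± 0.18 (SE), adjusted p = 0.00785). At 18 hpg, where replicate numbers were taken as pairing the libraries, a block on the 6 libraries alone, which was not planned, called 4 P450 genes. These were *CYP78A10* and *CYP716A2* higher and *CYP86A2* and *CYP76C1* lower in *puchi-1*. The block in the fit of all 36 libraries called none. *CYP716A2* was at 10.9, 21.4, and 42.3 CPM in WT libraries and 37.9, 60.9, and 109 in those of *puchi-1* at 18 hpg, higher in *puchi-1* in each pair although the groups overlap. Whether the difference between genotypes itself varied among the 5 times was tested with an F test, which passed none of the P450 genes (beside 0.0155% of all genes). An unadjusted p under 0.05 was reached by 3 (1.59%, beside 4.08% of all genes), and DESeq2 passed none. On the bend libraries alone *CYP89A7*, for which no role is given here, passed. It fell from 14.6, 12.3, and 12.8 CPM at 12 hpg to 1.04, 1.74, and 1.2 at 36 hpg in *puchi-1* and from 9.58, 11, and 9.05 to 3.07, 3.34, and 3.23 in the WT.

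In the ‘No LR’ segments 2 P450 genes were called (1.06%, beside 0.367% of all genes), both lower in *puchi-1* (0.301% of all genes were) and both at low levels. *CYP71B35* was at 0.607, 0.505, and 0.704 CPM in WT libraries and 0.0406, 0.138, and 0.107 in those of *puchi-1* (log2FC of -2.61 ± 0.53 (SE), adjusted p = 0.0148). *CYP71A25* was at 0.303, 0.155, and 0.136 CPM in WT libraries and 0, 0.0345, and 0.0195 in those of *puchi-1* (log2FC of -3.24 ± 0.80 (SE), adjusted p = 0.0431). In neither did the genotypes overlap. *CYP71B34*, the neighbour of *CYP71B35* and more abundant, was not called (-0.44 ± 0.22 (SE)). *CYP705A18* was the third to pass the adjusted p (of all genes 1.06% did), at 11.2, 12.4, and 12.4 CPM in *puchi-1* and 6.7, 8.22, and 9.34 in the WT (log2FC of 0.57 ± 0.14 (SE)), the direction it had in the bends. The count was 10 without replicate 3 of the WT segments and 10 without replicate 1 of the *puchi-1* segments, and 1 without replicate 2 of either genotype. No share of all genes is given for these fits. *CYP71A25* lost its call in each of 9 alternatives, among them the block on replicate number, and *CYP71B35* in 2.

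Of the 4 cyclophilins, *CYP71*, which acts with chromatin, and *CYP59* passed between genotypes over the bends with small differences (log2FC of 0.12 ± 0.03 (SE), adjusted p = 0.0268, and 0.13 ± 0.04 (SE), adjusted p = 0.0468). *CYP5* had 0.08 ± 0.05 (SE) (adjusted p = 0.358) and *CYP38*, a chloroplast protein, -0.05 ± 0.10 (SE) (adjusted p = 0.834). The promoters of the P450 genes were searched for GCCGCC, the core of the GCC box bound by ethylene response factors, on both strands of the 250 bases before the gene start (TAIR10.1). None of the 189 held it, beside 517 of 25860 genes tested (2.00%), which says only that these letters are not in this window.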

How the data were processed

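RNA was sequenced from 36 libraries, 3 for each of 12 groups, with a stranded mRNA kit. The deposited values are raw read counts per gene, made by the authors with TopHat2 2.1.1, Bowtie2 2.3.5.1, and featureCounts 2.0.0 on TAIR10, per the labels. They were used without change. The members, the lists, and the rule for named genes were chosen with earlier results of these data known.

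Genes with at least 15 reads summed over the libraries (25889 of 37973) were scaled by TMM and tested in one quasi-likelihood fit of the 12 groups with edgeR 4.0.16 in R 4.3.3, with Benjamini-Hochberg adjustment over all of them. A ± after a log2FC is its standard error, and every adjusted p printed comes from this fit. Genes were named when they ranked among the 10 largest changes of a comparison or the 10 highest levels, held a listed role, or differed from a named neighbour; exceptions are stated. Reads in a pool of seedlings are averaged over cells. The p-values rest on a spread between replicate libraries that is estimated per gene over all 12 groups of the fit. It is not the spread of the compared groups alone, which was wider in the ‘No LR’ segments than in the bends. The fit was tested on simulated data. Precision at 0 to 3 reads was given by exact counting intervals.

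Replicate numbers were taken as pairing the genotypes where every same-numbered pair of libraries deviated together. This held at 18 hpg (r of 0.68, 0.35, and 0.70), where the months in the titles also match, and at no other time. Alternatives were DESeq2 1.42.0, other filters, scalings, and sets of libraries, a block on replicate number, the month in the titles as a covariate, and leaving out each replicate. Sequences came from RefSeq (TAIR10.1), read with Biopython 1.88.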

Additional observations from a re-analysis of the deposited data

How the results depend on the processing

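Depth, at 31.7 to 122 M counts per library, limits the P450 genes with a mean under 1 CPM, all but 119 of the 189, whose changes rest on fewer reads. For single named genes, 84 results gave 1853 values under the alternatives, of which 1692 kept their direction and call, 161 kept the direction and lost the call, and none reversed. The counts of P450 genes that moved by more than 1.5 times follow, and where a value moved the cause was not tested. They are given without the share of all genes called in the same fit, and so do not set P450 genes apart.

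With DESeq2 the count between genotypes was 6 in the ‘No LR’ segments, 1 at 18, 30, and 36 hpg, 2 at 24 hpg, and 6 over the bends. On the libraries of the groups compared alone it was 0 in the segments and 1 at 18, 30, and 36 hpg, and 1 passed the test of a difference that varies with time. The same fits gave 0 for 12 hpg against ‘No LR’ in the WT and 15 in *puchi-1*. On the bend libraries alone the genotypes differed in 1, 2, 4, 1, and 4 genes at the 5 times from 12 to 36 hpg, and 1 passed the varying difference. With no filter 1 was called in the segments, and with filterByExpr 1 at 36 hpg. With the title month as a covariate 4 were called in the segments, 6 over the bends, and 24 for 12 hpg against ‘No LR’ in the WT. Without replicate 1 of both ‘No LR’ groups that last count was 49.

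With a block on replicate number in the fit of all libraries, 1 gene was called between genotypes in the segments and 1 at 24 hpg, and no other count moved by over 1.5 times. The numbers were taken as pairing the libraries at 18 hpg only, where an unplanned block on the 6 libraries alone called 4.

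Leaving out 1 replicate at a time gave 1 to 10 genes between genotypes in the segments, 0 to 1 at 24 hpg, and 2 to 5 over the bends, the lowest without replicate 3 of the WT at 12 hpg. For 12 hpg against ‘No LR’ it gave 4 to 45 in the WT and 27 to 57 in *puchi-1*. For 36 against 12 hpg it gave 36 to 42 in the WT and 53 to 60 in *puchi-1*.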
